A study of Homo sapiens with 18 samples.

Results

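The genes described here are the core machinery of autophagy, 41 genes listed by symbol: the ULK1 initiation complex (6 genes), the class III phosphoinositide 3-kinase complex (6), lipid transfer and membrane supply (6), the ATG8 and ATG12 conjugation systems (11), the ATG8 family (5), cargo receptors (3) and regulators (4). Each gene is represented by a probe set that the probe table assigns to that symbol alone, and where a gene had several, by the one with the highest mean. All 41 were measured, among 18417 genes in all. The cells were NCI-H1299, a human non-small cell lung carcinoma line without p53, sorted for green fluorescence and collected 40 h after transient transfection of a GFP vector with Lipofectamine. In the first set, the cells carried ΔNp53:WTp53, WTp53 or the empty vector in experiments 0, 4 and 5, which the series calls independent transfections. In the second set, they carried tethered WTp53, WTp53 or the empty vector in control experiments d, e and f. ΔNp53 is a p53 form that lacks the amino terminus, and how ΔNp53:WTp53 or the tethered protein was built is not given in the sources used here. For the tethered arrays the field on transfection names ΔNp53:WTp53, against title and description, and the title was followed. Each of the 6 groups had 3 arrays, each made from transiently transfected cells of a single cancer line, so that the cells differ from tissue in which p53 was present throughout. For the second set it is not stated that the experiments were separate transfections, so its p-values measure the spread between these samples, which may be technical.

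Autophagy encloses cytoplasm in a double membrane, the autophagosome, and delivers it to the lysosome. The ULK1 kinase complex starts the process, the lipid kinase PIK3C3 marks the site with phosphatidylinositol 3-phosphate, lipid carriers extend the membrane, and ubiquitin-like conjugation attaches ATG8 proteins to it, where cargo receptors bind. p53 in the nucleus is known to raise transcription of some of these genes, of which DRAM1, a lysosomal membrane protein, is a long-known human target, whereas TFEB is the master transcription factor of lysosomal and autophagy genes.

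Promoter windows of 3 genes are shown, running from 250 bases before to 50 bases after the gene's start, from the RefSeq table of build GRCh38.p14. The genes are DRAM1, which changed most with every p53 construct, GABARAPL1, the only member window with a p53 half-site, and ATG3, the only one with more than 1 CACGTG, the core of the element that TFEB binds. The windows lie at chr12:101877330-101877629 on the plus strand (DRAM1), chr12:10212627-10212926 on the plus strand (GABARAPL1) and chr3:112561913-112562212 on the minus strand (ATG3). Capitals mark the half-site in GABARAPL1 and the CACGTG matches in ATG3.
DRAM1: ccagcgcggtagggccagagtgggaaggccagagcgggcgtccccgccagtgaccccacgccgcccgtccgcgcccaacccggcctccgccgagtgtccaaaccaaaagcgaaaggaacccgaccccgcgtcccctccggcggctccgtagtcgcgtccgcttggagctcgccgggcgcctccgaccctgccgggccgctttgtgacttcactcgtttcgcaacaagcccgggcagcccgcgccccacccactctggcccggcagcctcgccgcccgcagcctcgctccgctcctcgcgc
GABARAPL1: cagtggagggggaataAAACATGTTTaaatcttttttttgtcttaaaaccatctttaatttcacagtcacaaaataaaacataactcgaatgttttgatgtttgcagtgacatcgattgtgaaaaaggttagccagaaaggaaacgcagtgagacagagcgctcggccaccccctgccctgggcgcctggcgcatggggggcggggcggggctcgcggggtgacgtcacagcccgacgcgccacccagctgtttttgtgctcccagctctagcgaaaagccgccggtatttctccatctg
ATG3: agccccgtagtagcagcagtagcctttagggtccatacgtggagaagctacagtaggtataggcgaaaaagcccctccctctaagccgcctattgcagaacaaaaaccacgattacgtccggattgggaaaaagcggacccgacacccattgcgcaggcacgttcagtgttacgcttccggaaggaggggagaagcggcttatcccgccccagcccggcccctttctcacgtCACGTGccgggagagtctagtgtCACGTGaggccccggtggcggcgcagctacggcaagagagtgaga
Windows were found for 37 of the 41 genes. The half-site consensus was searched without mismatch on both strands. It occurred in 1 of these 37 windows (2.7%), beginning 234 bases before the start of GABARAPL1, against 939 of 15843 protein-coding windows (5.93%). CACGTG, which reads the same on both strands, occurred in 3 (8.11%), against 1407 of all windows (8.88%): ATG3, where matches begin 18 bases before and 5 bases after the start, ATG14 and ULK3. A match describes these letters only.

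The values are log2 intensities normalized by the authors within each set, so that 1 unit is a 2-fold difference, and levels were compared only within a set. CDKN1A and MDM2, textbook p53 targets, were higher on every array with a p53 construct than on every vector array of the set. CDKN1A differed from vector by 3.69 ± 0.26 with ΔNp53:WTp53 and 4.62 ± 0.26 with WTp53 in the first set, and by 3.22 ± 0.06 with tethered WTp53 and 3.13 ± 0.06 with WTp53 in the second (log2 difference ± standard error, n = 3 arrays per group). Markers listed for lung carcinoma lines in general were KRT8, KRT18, KRT19, KRT7, VIM, EPCAM, CDH1 and NKX2-1. Of these 8, 1 was called higher than vector with ΔNp53:WTp53 and 0 with WTp53 of the first set. With tethered WTp53 3 were higher and with WTp53 of the second set 4, and 0 were lower in any of these comparisons. Among them KRT8, a keratin, rose by 0.86 with ΔNp53:WTp53, 0.60 with tethered WTp53 and 0.49 with WTp53 of the second set (adjusted p = 0.00744, 3.44e-06 and 3.05e-05). Of 5 leukocyte markers, CD79A and TYROBP rose by 0.28 and 0.47 with WTp53 of the first set (adjusted p = 0.0146 and 0.00457). In the second set CD14 fell by 0.50 with tethered WTp53 and 0.33 with WTp53, and CD79A rose by 0.38 with WTp53 (adjusted p = 0.000341, 0.00809 and 0.000107). The mean log2 intensity of these 5 markers was 4.21 to 4.36 with ΔNp53:WTp53, 4.53 to 4.54 with WTp53 and 4.24 to 4.38 with vector in the first set, and 6.50 to 6.64 with tethered WTp53, 6.64 to 6.72 with WTp53 and 6.63 to 6.69 with vector in the second. PTPRC, which defines leukocytes, was not called in any comparison (−0.03, −0.02, −0.04 and 0.03 relative to vector), and neither was any of 6 endothelial and fibroblast markers. Levels of different probe sets cannot be set against each other, so which of these transcripts were absent was not read from them, and the part of these markers in the results was not tested. Replicates differed more in the first set: over all genes the median standard deviation was 0.151 with ΔNp53:WTp53, 0.109 with WTp53 and 0.104 with vector in the first set, and 0.069, 0.049 and 0.056 with tethered WTp53, WTp53 and vector in the second. Smaller changes could therefore be called in the second set. Fewer cells with a transcript and less of it per cell cannot be told apart in these sorted populations.

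The comparisons with empty vector ask how the transcripts differ when p53 is present. With every p53 construct some autophagy genes were higher and others lower. The members called higher in all 4 comparisons were 5: DRAM1, TFEB, ULK1, WIPI2 and ATG4D. Those called lower in all 4 were 6: PIK3C3, PIK3R4, ATG14, ATG4C, ATG5 and NBR1. The share of all genes called in the same direction in all 4 was not counted, so these lists are a description of the members only. With ΔNp53:WTp53, 6 members were higher and 13 lower at a limma adjusted p under 0.05, where 36.1% of all genes were called, 15.7% higher and 20.3% lower. With WTp53 in the first set 5 were higher and 11 lower, where 31.8% of all genes were called (15.2% and 16.6%). With tethered WTp53 11 were higher and 19 lower, where 47.8% of all genes were called (21.6% and 26.2%). With WTp53 in the second set 9 were higher and 12 lower, where 36.8% of all genes were called (17.9% and 18.9%). Changes of at least 1.5-fold were fewer: 4 higher and 9 lower with ΔNp53:WTp53, 5 and 7 with WTp53 of the first set, 2 and 2 with tethered WTp53, and 1 and 1 with WTp53 of the second set. Over all genes such changes were made upwards and downwards by 9.86% and 11.1%, 8.5% and 9.35%, 7.25% and 5.4%, and 4.54% and 2.24% in the same order. The median member changed by −0.08, −0.09, −0.06 and 0.00, and the median gene by 0.01, 0.02, 0.00 and −0.02. Within a set both comparisons use the same vector arrays, so their calls are not independent. Of the genes called in all 4 comparisons, ATG14, ATG4C, ATG5 and TFEB lost the call with WTp53 of the second set when all 18 arrays were fitted together (adjusted p = 0.184, 0.104, 0.109 and 0.148).

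**Figure D1:**
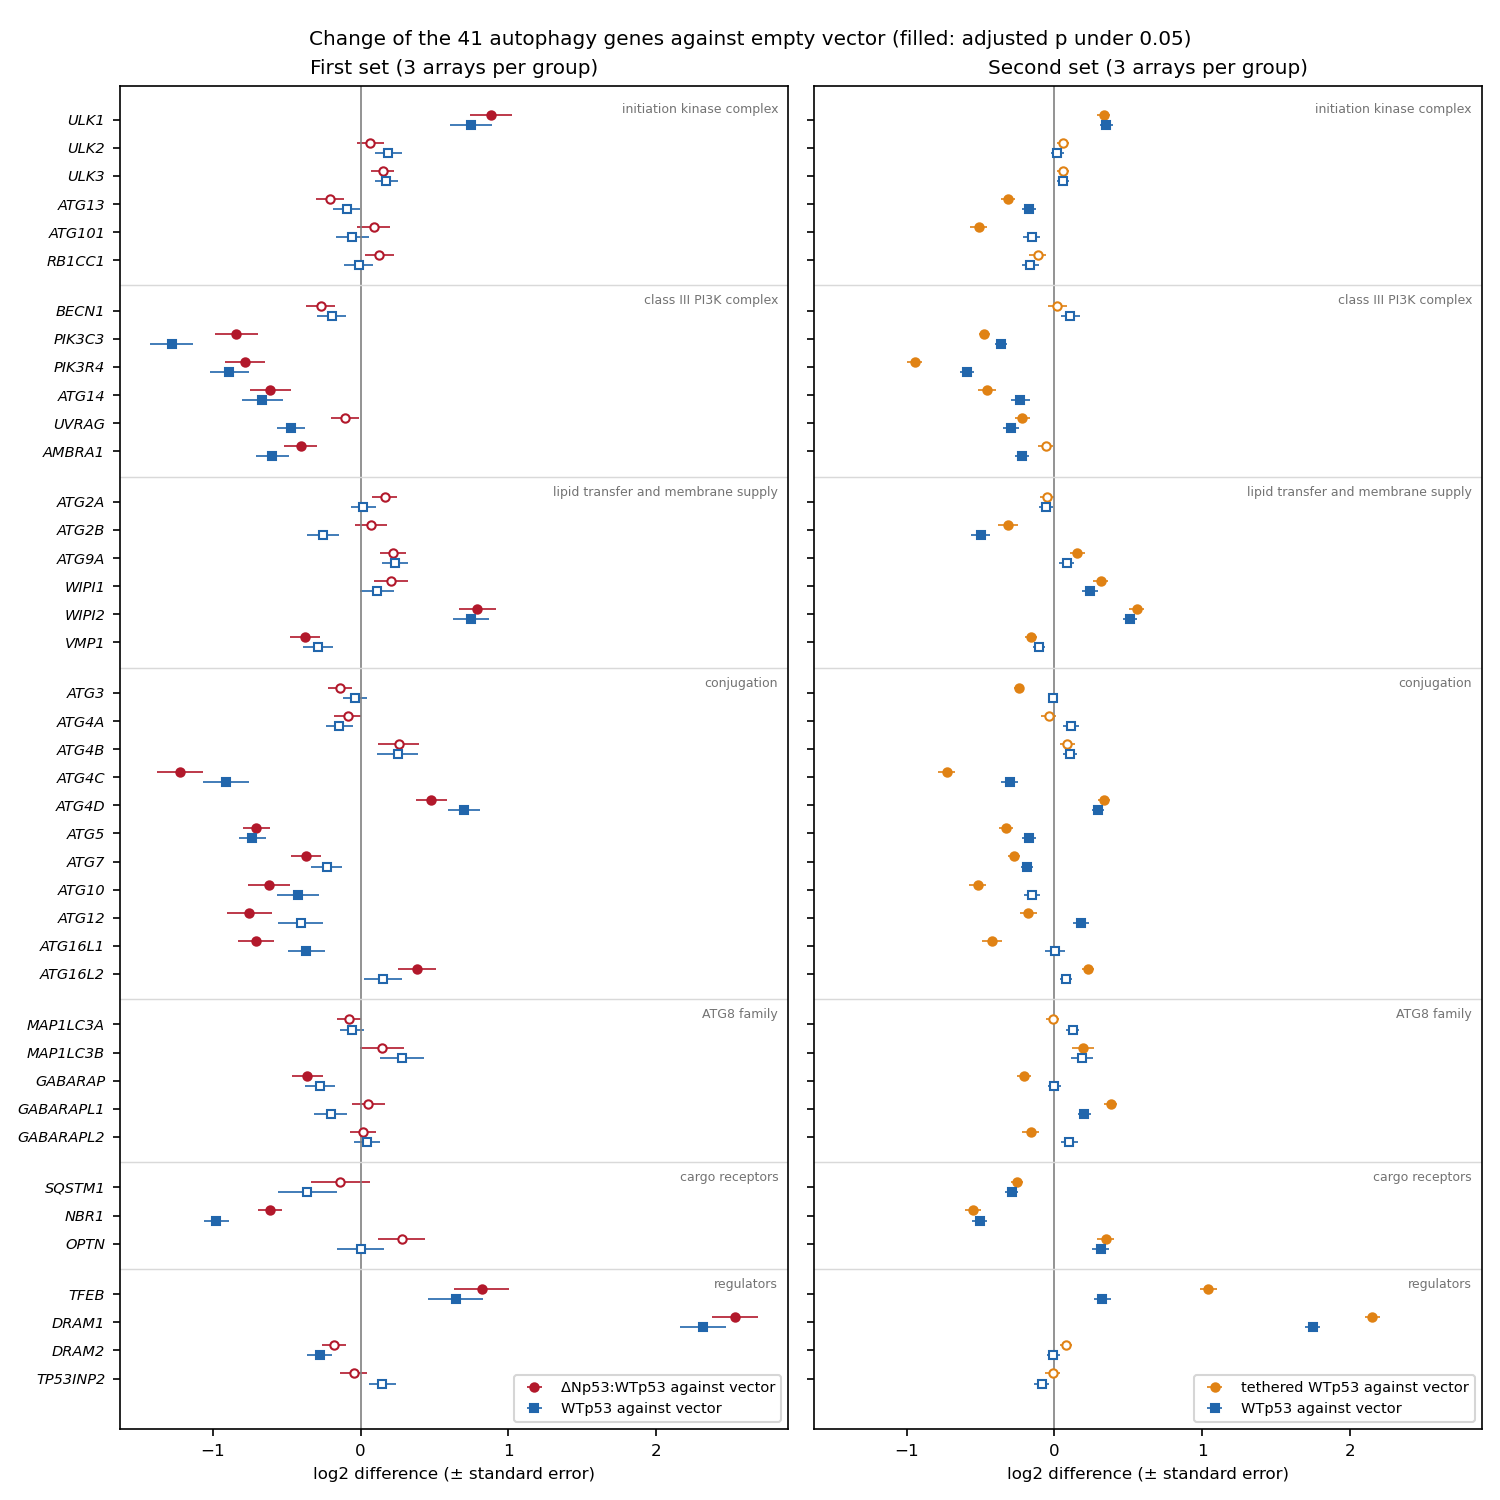
Log2 difference from empty vector (horizontal axis, ± standard error of the limma fit) for the 41 autophagy genes, grouped by role; circles are ΔNp53:WTp53 (first set) or tethered WTp53 (second set), squares WTp53, filled where the adjusted p is under 0.05. DRAM1 stands far to the right in both panels (2.53 and 2.15 for the circles), and the class III kinase genes PIK3C3, PIK3R4 and ATG14 lie left of 0 in all 4 series.

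Among the regulators DRAM1 moved most. In the first set its log2 intensities were 8.25, 8.73 and 8.90 with ΔNp53:WTp53, 8.36, 8.44 and 8.43 with WTp53 and 6.30, 6.01 and 5.98 with empty vector. All arrays with a p53 construct lay far above the highest vector array, and both p53 groups overlapped. It was 5.78-fold higher with ΔNp53:WTp53 (2.53 ± 0.16, limma adjusted p = 8.56e-06) and 4.97-fold higher with WTp53 (2.31 ± 0.16, adjusted p = 1.55e-05). DRAM1 read 9.47, 9.31 and 9.50 with tethered WTp53, 9.0, 9.04 and 9.03 with WTp53 and 7.25, 7.29 and 7.29 with empty vector in the second set. The 3 groups did not overlap: tethered WTp53 was highest, WTp53 next and vector lowest. The folds over vector were 4.44 with tethered WTp53 (2.15 ± 0.05, adjusted p = 3.29e-10) and 3.36 with WTp53 (1.75 ± 0.05, adjusted p = 3.59e-09). TFEB lay at 5.08, 5.95 and 5.62 with ΔNp53:WTp53, 5.40, 5.28 and 5.45 with WTp53 and 4.78, 4.84 and 4.58 with empty vector in the first set and at 8.36, 8.31 and 8.14 with tethered WTp53, 7.52, 7.55 and 7.59 with WTp53 and 7.28, 7.22 and 7.19 with empty vector in the second. Vector arrays were lowest in both sets. TFEB rose by 0.82 with ΔNp53:WTp53 (adjusted p = 0.00633) and by 0.64 with WTp53 (adjusted p = 0.0233), and in the second set by 1.04 with tethered WTp53 (adjusted p = 1.05e-07) and 0.32 with WTp53 (adjusted p = 0.00109). The call for TFEB with WTp53 in the first set was lost without the WTp53 array of experiment 0 (adjusted p = 0.0581) or 5 (0.0804) and without the vector array of experiment 5 (0.0886). DRAM2, a relative of DRAM1, changed by −0.18 ± 0.08, −0.28 ± 0.08, 0.08 ± 0.04 and −0.01 ± 0.04 with ΔNp53:WTp53, WTp53 of the first set, tethered WTp53 and WTp53 of the second set, and only the WTp53 change of the first set was called (adjusted p = 0.0294). TP53INP2, which binds ATG8 proteins, was called in none of the 4.

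**Figure D2:**
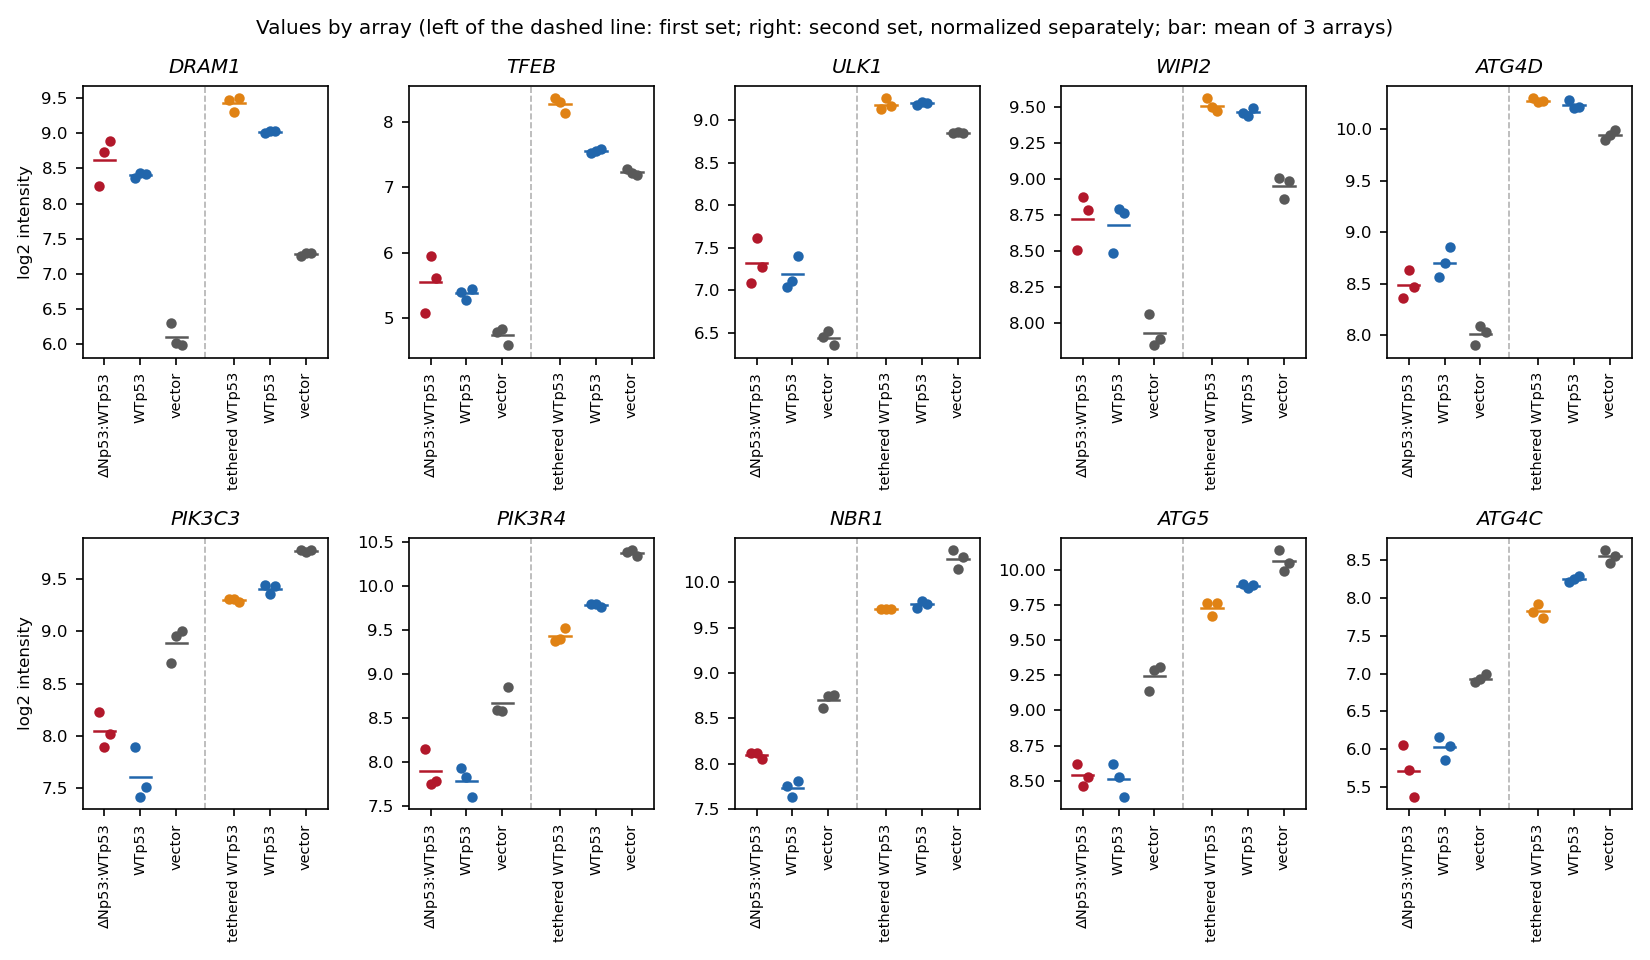
Log2 intensity (vertical axes, each with its own range) of 10 members on every array; points are arrays, bars the mean of 3, with ΔNp53:WTp53, WTp53 and vector of the first set left of the dashed line and tethered WTp53, WTp53 and vector of the second set right of it. In the upper row, from DRAM1 to ATG4D, the vector arrays are the lowest of their set, whereas for PIK3C3, PIK3R4, NBR1, ATG5 and ATG4C they are the highest.

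In the kinase complex that starts autophagy, ULK1, the catalytic subunit, rose with every construct, while ATG13 and ATG101 fell with tethered WTp53. ULK1 lay at 7.08, 7.61 and 7.28 with ΔNp53:WTp53, 7.04, 7.11 and 7.41 with WTp53 and 6.45, 6.52 and 6.36 with empty vector in the first set, and in the second at 9.13, 9.26 and 9.17 with tethered WTp53, 9.18, 9.22 and 9.21 with WTp53 and 8.85, 8.86 and 8.85 with empty vector. Every vector array was below every p53 array of its set, while arrays of both p53 groups overlapped. ULK1 was 1.84-fold higher with ΔNp53:WTp53 (0.88 ± 0.14, adjusted p = 0.00113) and 1.68-fold higher with WTp53 of the first set (0.75 ± 0.14, adjusted p = 0.00306). The folds of the second set were 1.26 with tethered WTp53 (0.33 ± 0.04, adjusted p = 6.27e-05) and 1.27 with WTp53 (0.35 ± 0.04, adjusted p = 7.99e-05). ATG13 and ATG101, regulatory subunits, were not called in the first set. ATG13 lay at 8.24, 7.99 and 7.95 with ΔNp53:WTp53, 8.24, 8.17 and 8.11 with WTp53 and 8.28, 8.25 and 8.28 with empty vector. Its second-set intensities were 10.01, 9.91 and 9.92 with tethered WTp53, 10.06, 10.10 and 10.10 with WTp53 and 10.34, 10.20 and 10.24 with empty vector, lowest with tethered WTp53 and highest with vector, without overlap. It fell by 0.31 with tethered WTp53 (adjusted p = 0.000242) and by 0.17 with WTp53 (adjusted p = 0.0159). ATG101 lay at 7.72, 8.14 and 7.95 with ΔNp53:WTp53, 7.75, 7.85 and 7.79 with WTp53 and 7.86, 7.94 and 7.75 with empty vector in the first set, where the groups overlapped, and at 9.43, 9.37 and 9.56 with tethered WTp53, 9.79, 9.79 and 9.86 with WTp53 and 10.02, 9.89 and 9.99 with empty vector in the second, where they did not. It fell by 0.51 with tethered WTp53 (adjusted p = 1.89e-05), while its WTp53 change of −0.15 ± 0.06 missed the threshold (adjusted p = 0.0576). The scaffold RB1CC1 and the kinases ULK2 and ULK3 were called in none of the 4 comparisons, with changes between −0.16 and 0.19.

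Of the 6 genes of the class III phosphoinositide 3-kinase complex, 4 fell with ΔNp53:WTp53, 5 with WTp53 of the first set, 4 with tethered WTp53 and 5 with WTp53 of the second set, and 0 rose. Of all genes 20.3%, 16.6%, 26.2% and 18.9% fell in the same order. PIK3C3, the catalytic subunit VPS34, lay at 8.23, 7.89 and 8.02 with ΔNp53:WTp53, 7.89, 7.42 and 7.51 with WTp53 and 8.70, 8.96 and 9.0 with empty vector in the first set. WTp53 was lowest and vector highest, without overlap, although the lowest ΔNp53:WTp53 and the highest WTp53 array round to the same value. PIK3C3 was 1.79-fold lower with ΔNp53:WTp53 (−0.84 ± 0.14, adjusted p = 0.00154) and 2.43-fold lower with WTp53 (−1.28 ± 0.14, adjusted p = 0.000175). In the second set it lay at 9.31, 9.31 and 9.28 with tethered WTp53, 9.44, 9.36 and 9.43 with WTp53 and 9.78, 9.76 and 9.78 with empty vector, again with every vector array highest. It fell by 0.47 with tethered WTp53 (adjusted p = 2e-06) and by 0.36 with WTp53 (adjusted p = 2.97e-05). PIK3R4, the VPS15 subunit that anchors the kinase, lay at 8.15, 7.75 and 7.79 with ΔNp53:WTp53, 7.93, 7.83 and 7.61 with WTp53 and 8.59, 8.58 and 8.85 with empty vector in the first set and at 9.37, 9.40 and 9.52 with tethered WTp53, 9.80, 9.80 and 9.76 with WTp53 and 10.38, 10.41 and 10.34 with empty vector in the second. Both p53 groups overlapped below the vector arrays in the first set, and in the second all 3 groups were apart. PIK3R4 fell by 0.78 with ΔNp53:WTp53 (adjusted p = 0.00155), 0.89 with WTp53 of the first set (adjusted p = 0.000826), 0.95 with tethered WTp53 (adjusted p = 4.87e-08) and 0.59 with WTp53 of the second set (adjusted p = 3.56e-06).

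ATG14, which directs the kinase complex to autophagosome formation, lay at 7.58, 7.09 and 7.06 with ΔNp53:WTp53, 7.32, 7.13 and 7.11 with WTp53 and 7.84, 7.94 and 7.79 with empty vector in the first set and at 8.12, 8.09 and 7.97 with tethered WTp53, 8.24, 8.25 and 8.37 with WTp53 and 8.50, 8.43 and 8.62 with empty vector in the second. Vector arrays were highest in both sets. The changes of ATG14 were −0.61 ± 0.14 with ΔNp53:WTp53, −0.67 ± 0.14 with WTp53, −0.46 ± 0.06 with tethered WTp53 and −0.23 ± 0.06 with WTp53 of the second set, all called (adjusted p = 0.00641, 0.00448, 9.35e-05 and 0.0134). AMBRA1, an activator of the complex, lay at 6.16, 6.11 and 6.24 with ΔNp53:WTp53, 6.13, 6.09 and 5.71 with WTp53 and 6.53, 6.59 and 6.60 with empty vector in the first set. Here too the vector arrays were above all p53 arrays, and AMBRA1 fell by 0.41 with ΔNp53:WTp53 (adjusted p = 0.0174) and by 0.60 with WTp53 (adjusted p = 0.0027). AMBRA1 read 8.50, 8.49 and 8.60 with tethered WTp53, 8.44, 8.34 and 8.33 with WTp53 and 8.58, 8.55 and 8.64 with empty vector in the second set. WTp53 arrays were lowest, by 0.22 (adjusted p = 0.00464), and tethered WTp53 overlapped with vector (−0.06 ± 0.05, adjusted p = 0.364). UVRAG, the subunit of the endosomal form of the complex, fell by 0.47 with WTp53 of the first set, 0.22 with tethered WTp53 and 0.29 with WTp53 of the second set (adjusted p = 0.00354, 0.00541 and 0.00114), and changed by −0.11 ± 0.09 with ΔNp53:WTp53 (adjusted p = 0.434). BECN1, the scaffold of the complex and its best-known member, was called in none of the 4 comparisons: its changes were −0.27 ± 0.10 with ΔNp53:WTp53, −0.20 ± 0.10 with WTp53, 0.02 ± 0.07 with tethered WTp53 and 0.11 ± 0.07 with WTp53 of the second set. The median change of the 6 genes was −0.51, −0.63, −0.34 and −0.26 in the same order.

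Of the genes for lipid transfer and membrane supply, WIPI2, which binds phosphatidylinositol 3-phosphate and brings ATG16L1 to the membrane, changed most. It lay at 8.51, 8.88 and 8.79 with ΔNp53:WTp53, 8.49, 8.79 and 8.77 with WTp53 and 8.06, 7.85 and 7.89 with empty vector in the first set and at 9.56, 9.50 and 9.47 with tethered WTp53, 9.46, 9.44 and 9.49 with WTp53 and 9.01, 8.86 and 8.99 with empty vector in the second. No p53 array was as low as a vector array of its set, and WTp53 arrays lay among those of the other construct. WIPI2 was 1.73-fold higher with ΔNp53:WTp53 (0.79 ± 0.12, adjusted p = 0.000958), 1.68-fold higher with WTp53 of the first set (0.75 ± 0.12, adjusted p = 0.00136), 1.47-fold higher with tethered WTp53 (0.56 ± 0.05, adjusted p = 3.33e-06) and 1.42-fold higher with WTp53 of the second set (0.51 ± 0.05, adjusted p = 1.33e-05). Its relative WIPI1 rose by 0.31 with tethered WTp53 and 0.24 with WTp53 in the second set (adjusted p = 0.000426 and 0.00386) and was not called in the first set (0.21 ± 0.11 with ΔNp53:WTp53, 0.11 ± 0.11 with WTp53). WIPI1 overlaps ARSG and PRKAR1A on the genome, as VMP1 overlaps MIR21, and signal from overlapping genes was not separated. This holds also for ATG4A with PSMD10, ATG4D with KRI1, DRAM2 with CEPT1, SQSTM1 with MGAT4B and MRNIP, and GABARAPL1 with its antisense RNA. Further members with an overlap include ATG13 (HARBI1), ATG14 (FBXO34), BECN1 (CNTD1), ATG3 (SLC35A5) and ATG7 (VGLL4). ATG16L1 (SCARNA5 and SCARNA6), ATG16L2 (FCHSD2) and GABARAP (PHF23) are others, and the list is not complete. ATG2B, a lipid transfer protein, fell by 0.31 with tethered WTp53 and 0.50 with WTp53 in the second set (adjusted p = 0.00213 and 0.00013). In the first set ATG2B was not called, at 0.07 ± 0.11 with ΔNp53:WTp53 and −0.25 ± 0.11 with WTp53 (adjusted p = 0.679 and 0.101). Its paralogue ATG2A was not called, with changes between −0.06 and 0.16. ATG9A, the lipid scramblase of the first vesicles, rose by 0.15 with tethered WTp53 (adjusted p = 0.029). Its larger first-set changes, 0.22 ± 0.09 with ΔNp53:WTp53 and 0.23 ± 0.09 with WTp53, were not called (adjusted p = 0.0801 and 0.0691). Neither was its change of 0.08 ± 0.05 with WTp53 of the second set (adjusted p = 0.244). VMP1, a scramblase of the endoplasmic reticulum, fell by 0.38 with ΔNp53:WTp53 (adjusted p = 0.0166) and 0.16 with tethered WTp53 (adjusted p = 0.00642), and its WTp53 changes of −0.29 ± 0.10 and −0.11 ± 0.04 missed the threshold (adjusted p = 0.0595 and 0.0612).

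Of the 11 conjugation genes, 6 fell and 2 rose with ΔNp53:WTp53, 4 fell and 1 rose with WTp53 of the first set, 7 fell and 2 rose with tethered WTp53, and 3 fell and 2 rose with WTp53 of the second set, with median changes of −0.37, −0.23, −0.24 and 0.00. Of all genes 20.3%, 16.6%, 26.2% and 18.9% fell and 15.7%, 15.2%, 21.6% and 17.9% rose in the same order. Of the ATG4 proteases, which process ATG8 proteins and release them from membranes, ATG4C fell and ATG4D rose. ATG4C lay at 6.05, 5.72 and 5.37 with ΔNp53:WTp53, 6.16, 5.86 and 6.04 with WTp53 and 6.89, 6.93 and 6.99 with empty vector in the first set, with the p53 groups overlapping, and at 7.81, 7.92 and 7.74 with tethered WTp53, 8.21, 8.25 and 8.29 with WTp53 and 8.64, 8.46 and 8.56 with empty vector in the second, with no overlap. Vector arrays were highest in both. ATG4C was 2.33-fold lower with ΔNp53:WTp53 (−1.22 ± 0.16, adjusted p = 0.000298) and 1.88-fold lower with WTp53 (−0.91 ± 0.16, adjusted p = 0.00151), and in the second set 1.66-fold lower with tethered WTp53 (−0.73 ± 0.06, adjusted p = 1.74e-06) and 1.23-fold lower with WTp53 (−0.30 ± 0.06, adjusted p = 0.00195). ATG4D lay at 8.36, 8.64 and 8.47 with ΔNp53:WTp53, 8.56, 8.70 and 8.86 with WTp53 and 7.90, 8.09 and 8.03 with empty vector in the first set and at 10.30, 10.26 and 10.27 with tethered WTp53, 10.28, 10.21 and 10.22 with WTp53 and 9.90, 9.94 and 9.99 with empty vector in the second, and here vector arrays were lowest. It rose by 0.48 with ΔNp53:WTp53 (adjusted p = 0.00619), 0.70 with WTp53 (adjusted p = 0.000902), 0.33 with tethered WTp53 (adjusted p = 4.75e-05) and 0.29 with WTp53 of the second set (adjusted p = 0.000215). ATG4B, the most active family member, was called in no comparison with vector, with changes of 0.26 ± 0.14, 0.25 ± 0.14, 0.09 ± 0.05 and 0.11 ± 0.05 for ΔNp53:WTp53, WTp53, tethered WTp53 and WTp53 of the second set. ATG4A, likewise not called against vector, lay at 6.54, 6.72 and 6.59 with ΔNp53:WTp53, 6.51, 6.62 and 6.53 with WTp53 and 6.57, 6.82 and 6.72 with empty vector in the first set and at 7.57, 7.56 and 7.50 with tethered WTp53, 7.62, 7.73 and 7.74 with WTp53 and 7.60, 7.50 and 7.65 with empty vector in the second. Its tethered WTp53 arrays were below all WTp53 arrays and overlapped with vector.

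ATG5, ATG12 and ATG16L1 form the complex that attaches ATG8 proteins to the membrane. ATG5 lay at 8.62, 8.47 and 8.53 with ΔNp53:WTp53, 8.62, 8.53 and 8.39 with WTp53 and 9.14, 9.29 and 9.31 with empty vector in the first set and at 9.76, 9.67 and 9.76 with tethered WTp53, 9.90, 9.87 and 9.89 with WTp53 and 10.14, 9.99 and 10.05 with empty vector in the second. Vector arrays were highest in both sets. ATG5 fell by 0.71 with ΔNp53:WTp53 (adjusted p = 0.000378), 0.73 with WTp53 (adjusted p = 0.000325), 0.33 with tethered WTp53 (adjusted p = 0.00016) and 0.17 with WTp53 of the second set (adjusted p = 0.0156). ATG12 lay at 7.50, 6.90 and 6.84 with ΔNp53:WTp53, 7.51, 7.45 and 7.33 with WTp53 and 7.81, 7.86 and 7.83 with empty vector in the first set, where vector was highest, and at 8.87, 8.87 and 9.03 with tethered WTp53, 9.27, 9.31 and 9.26 with WTp53 and 9.04, 9.07 and 9.19 with empty vector in the second, where WTp53 was highest. It fell by 0.75 with ΔNp53:WTp53 (adjusted p = 0.00385) and 0.18 with tethered WTp53 (adjusted p = 0.024), rose by 0.18 with WTp53 of the second set (adjusted p = 0.0284), and changed by −0.41 ± 0.15 with WTp53 of the first set (adjusted p = 0.0723, and 0.0433 with the experiment as a block). Of ATG16L1, the intensities were 6.63, 6.44 and 6.12 with ΔNp53:WTp53, 6.73, 6.83 and 6.65 with WTp53 and 7.04, 7.10 and 7.16 with empty vector in the first set and 7.71, 7.83 and 7.93 with tethered WTp53, 8.18, 8.25 and 8.32 with WTp53 and 8.23, 8.17 and 8.34 with empty vector in the second. The first set had 3 groups without overlap, lowest with ΔNp53:WTp53 and highest with vector, whereas in the second set tethered WTp53 lay below WTp53 and vector, which overlapped. ATG16L1 fell by 0.71 with ΔNp53:WTp53 (adjusted p = 0.00167), 0.37 with WTp53 of the first set (adjusted p = 0.0459) and 0.42 with tethered WTp53 (adjusted p = 0.000253), and its change was 0.00 ± 0.07 with WTp53 of the second set (adjusted p = 0.974).

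ATG10, which loads ATG12 on ATG5, lay at 6.70, 6.16 and 6.31 with ΔNp53:WTp53, 6.73, 6.47 and 6.55 with WTp53 and 6.89, 6.99 and 7.14 with empty vector in the first set and at 7.57, 7.40 and 7.37 with tethered WTp53, 7.83, 7.83 and 7.78 with WTp53 and 7.94, 8.02 and 7.94 with empty vector in the second. The vector arrays were above all p53 arrays of their set. ATG10 fell by 0.62 with ΔNp53:WTp53 (adjusted p = 0.00628), 0.42 with WTp53 (adjusted p = 0.0416) and 0.52 with tethered WTp53 (adjusted p = 1.43e-05), and changed by −0.15 ± 0.06 with WTp53 of the second set (adjusted p = 0.0527). ATG7, the activating enzyme of both conjugation systems, fell by 0.37 with ΔNp53:WTp53, 0.27 with tethered WTp53 and 0.18 with WTp53 of the second set (adjusted p = 0.0183, 0.000183 and 0.00434), and its change of −0.23 ± 0.10 with WTp53 of the first set was not called (adjusted p = 0.126). ATG3, the enzyme that transfers ATG8 proteins to lipid, lay at 9.22, 9.27 and 9.14 with ΔNp53:WTp53, 9.31, 9.37 and 9.25 with WTp53 and 9.30, 9.43 and 9.31 with empty vector in the first set, where it was not called. ATG3 lay at 10.68, 10.68 and 10.70 with tethered WTp53, 10.90, 10.91 and 10.94 with WTp53 and 10.94, 10.91 and 10.93 with empty vector in the second set. Tethered WTp53 was lowest on all 3 arrays, by 0.24 relative to vector (adjusted p = 0.000217), while WTp53 and vector overlapped (−0.01 ± 0.04). ATG16L2, the paralogue of ATG16L1, lay at 5.86, 6.14 and 6.31 with ΔNp53:WTp53, 6.09, 5.76 and 5.76 with WTp53 and 5.71, 5.73 and 5.71 with empty vector in the first set and at 7.84, 7.91 and 7.82 with tethered WTp53, 7.68, 7.73 and 7.71 with WTp53 and 7.63, 7.66 and 7.60 with empty vector in the second. Vector arrays were lowest in both sets, and tethered WTp53 arrays were above WTp53 arrays. ATG16L2 rose with ΔNp53:WTp53, by 0.38 (adjusted p = 0.0394, and 0.0524 with the experiment as a block), and with tethered WTp53, by 0.23 (adjusted p = 0.000808).

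Of the 5 ATG8 family genes, 0 rose and 1 fell with ΔNp53:WTp53, and 0 were called with WTp53 of the first set. With tethered WTp53 2 rose and 2 fell, and with WTp53 of the second set 1 rose and 0 fell. Of all genes 36.1%, 31.8%, 47.8% and 36.8% were called in the same order. The first-set call was that of GABARAP. It lay at 8.54, 8.21 and 8.37 with ΔNp53:WTp53, 8.59, 8.41 and 8.37 with WTp53 and 8.79, 8.67 and 8.74 with empty vector, with vector above both p53 groups, and fell by 0.36 with ΔNp53:WTp53 (adjusted p = 0.0209). The change with WTp53 was −0.28 ± 0.10 (adjusted p = 0.0704, and 0.0384 with the experiment as a block). In the second set GABARAP lay at 11.21, 11.28 and 11.23 with tethered WTp53, 11.44, 11.51 and 11.39 with WTp53 and 11.40, 11.48 and 11.46 with empty vector, where tethered WTp53 was lowest, by 0.21 relative to vector (adjusted p = 0.00292), and WTp53 and vector had equal means. GABARAPL1 lay at 8.17, 7.92 and 8.19 with ΔNp53:WTp53, 7.96, 7.90 and 7.65 with WTp53 and 8.11, 7.96 and 8.04 with empty vector in the first set, where the groups overlapped. Its second-set values, 11.21, 11.13 and 11.13 with tethered WTp53, 10.98, 10.99 and 10.97 with WTp53 and 10.83, 10.70 and 10.80 with empty vector, fell into 3 separate groups. GABARAPL1 rose by 0.38 with tethered WTp53 (adjusted p = 3.7e-05) and 0.20 with WTp53 (adjusted p = 0.00477). GABARAPL2 lay at 10.65, 10.73 and 10.89 with ΔNp53:WTp53, 10.73, 10.84 and 10.80 with WTp53 and 10.69, 10.81 and 10.72 with empty vector in the first set and at 11.48, 11.37 and 11.56 with tethered WTp53, 11.72, 11.72 and 11.75 with WTp53 and 11.72, 11.54 and 11.63 with empty vector in the second. Only its change with tethered WTp53 was called, −0.16 ± 0.06, and those arrays overlapped with vector (adjusted p = 0.0445). MAP1LC3A lay at 5.89, 5.81 and 5.91 with ΔNp53:WTp53, 5.89, 5.91 and 5.88 with WTp53 and 5.87, 6.07 and 5.91 with empty vector and at 8.35, 8.37 and 8.30 with tethered WTp53, 8.41, 8.50 and 8.51 with WTp53 and 8.36, 8.31 and 8.38 with empty vector, without a call against vector. MAP1LC3B, the form most used to follow autophagosomes, rose by 0.19 with tethered WTp53 (limma adjusted p = 0.0458, and 0.276 with all 18 arrays fitted together). The lowest tethered WTp53 and the highest vector array both read 9.64, and a probe set shared with MAP1LC3B2 changed by −0.10. MAP1LC3B was not called with the other constructs (0.15 ± 0.15 with ΔNp53:WTp53, 0.28 ± 0.15 and 0.19 ± 0.07 with WTp53).

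Among the cargo receptors NBR1 fell with every construct. NBR1 lay at 8.11, 8.11 and 8.05 with ΔNp53:WTp53, 7.75, 7.63 and 7.80 with WTp53 and 8.61, 8.75 and 8.76 with empty vector in the first set, 3 groups without overlap. It was 1.53-fold lower with ΔNp53:WTp53 (−0.61 ± 0.08, adjusted p = 0.000447) and 1.97-fold lower with WTp53 (−0.98 ± 0.08, adjusted p = 4.52e-05). In the second set it lay at 9.71, 9.71 and 9.71 with tethered WTp53, 9.72, 9.79 and 9.76 with WTp53 and 10.36, 10.15 and 10.28 with empty vector, with every vector array highest. NBR1 fell by 0.55 with tethered WTp53 (adjusted p = 6.24e-06) and 0.51 with WTp53 (adjusted p = 2.43e-05). SQSTM1, the receptor p62, fell by 0.25 with tethered WTp53 and 0.29 with WTp53 in the second set (adjusted p = 0.000472 and 0.000291). In the first set it changed by −0.14 ± 0.20 with ΔNp53:WTp53 (adjusted p = 0.657) and −0.36 ± 0.20 with WTp53 (adjusted p = 0.208, and 0.0158 with the experiment as a block). OPTN, a receptor for damaged mitochondria and bacteria, rose by 0.35 with tethered WTp53 and 0.31 with WTp53 of the second set (adjusted p = 0.000414 and 0.00132) and was not called in the first set (0.28 ± 0.16 with ΔNp53:WTp53, −0.00 ± 0.16 with WTp53).

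ΔNp53:WTp53 against WTp53 asks how these transcripts differ between cells with the combination and cells with WTp53. The form of the protein, its amount and the transfection cannot be told apart in it. No member was called by limma (0 of 41), where 2.44% of all genes were called (1.56% higher and 0.88% lower). At an unadjusted p under 0.05 there were 7 members, against 18% of all genes, and 7 members had groups that did not overlap, against 20.6% of all genes. The member changes ran from −0.35 to 0.44 with a median of 0.04, against −0.01 for all genes. Of the 41 intervals of 95%, 34 lay within 1.5-fold in either direction, and differences smaller than that may be missed. On simulated data with the spread of this comparison 2% of genes shifted 1.2-fold, 72% of genes shifted 1.5-fold and 94% of genes shifted 2-fold were called. The simulation shifted 50 genes at each fold and gave 139 calls, against 449 in the data, so these shares hold for that setting only. NBR1 came nearest, with 8.11, 8.11 and 8.05 on the ΔNp53:WTp53 arrays against 7.75, 7.63 and 7.80 on the WTp53 arrays. Each ΔNp53:WTp53 array was above each WTp53 array, by 0.36 ± 0.08 on average (95% interval 0.18 to 0.55, adjusted p = 0.0544). UVRAG followed at 7.85, 7.74 and 7.71 with ΔNp53:WTp53 against 7.54, 7.36 and 7.30 with WTp53, a difference of 0.37 ± 0.09 (adjusted p = 0.0762, and 0.0439 with the experiment as a block, the only member called there). The others with an unadjusted p under 0.05 were PIK3C3 (0.44 ± 0.14), ATG2B (0.32 ± 0.11) and GABARAPL1 (0.25 ± 0.11) above WTp53 and ATG16L1 (−0.34 ± 0.12) and ATG12 (−0.35 ± 0.15) below it. DRAM1 lay at 8.25, 8.73 and 8.90 with ΔNp53:WTp53 and 8.36, 8.44 and 8.43 with WTp53, a difference of 0.22 ± 0.16 (95% interval −0.13 to 0.57, adjusted p = 0.536). Its ΔNp53:WTp53 array of experiment 0 was below all 3 WTp53 arrays and the other two above them, and without that array the adjusted p was 0.0474. The count rested on that array too: without it 2 members were higher and 3 lower, and 12.4% of all genes were called. NBR1 then had an adjusted p of 0.0376.

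**Figure D3:**
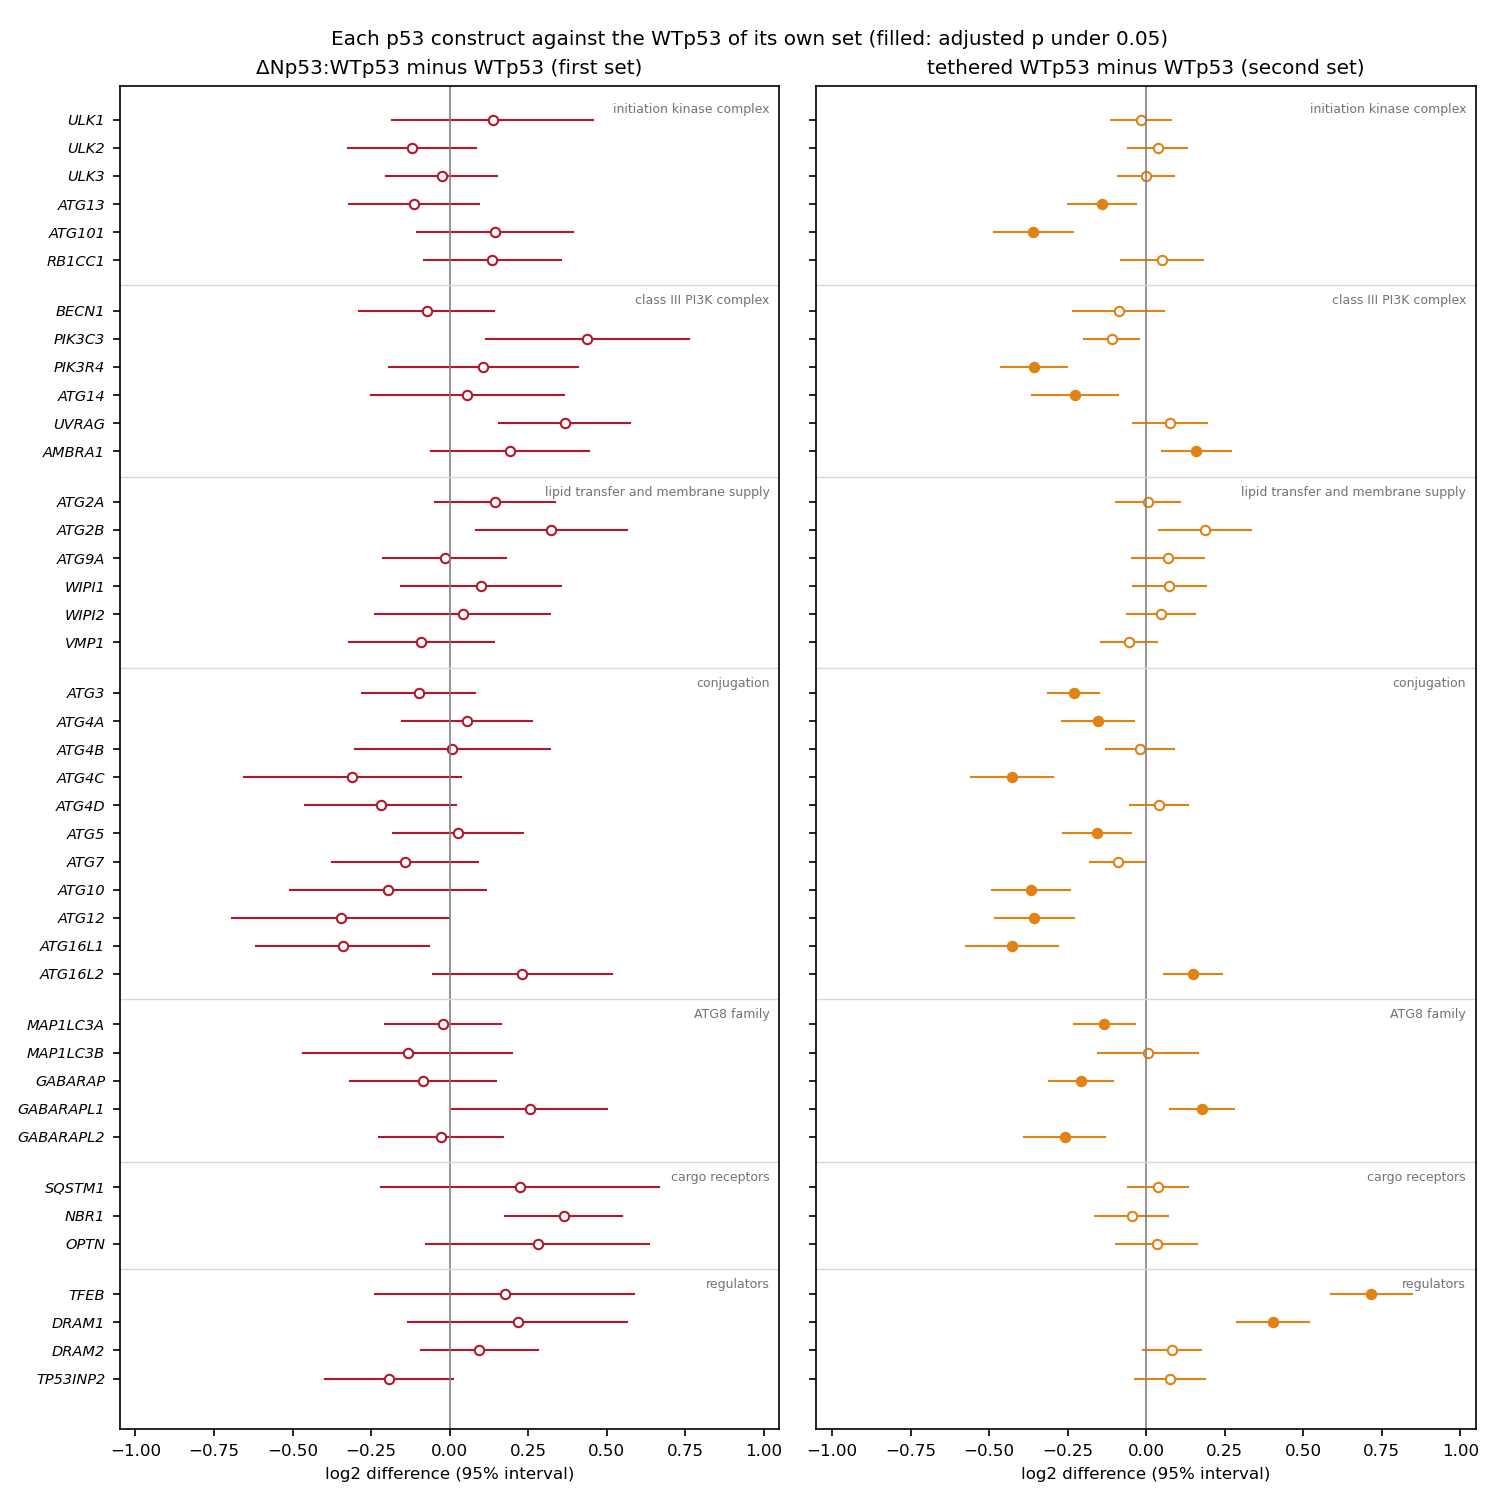
Log2 difference of ΔNp53:WTp53 (left, first set) and of tethered WTp53 (right, second set) from the WTp53 of the same set, for the 41 genes by role; lines are 95% intervals, points are filled where the adjusted p is under 0.05. The left panel has no filled point and wider intervals, and the right panel has 5 filled points above 0 and 14 below.

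Tethered WTp53 against WTp53 asks how the transcripts differ between both constructs in the control experiments. As in the first set, the form of the protein, its amount and the transfection cannot be told apart. Here 5 members were higher and 14 lower, where 32.4% of all genes were called, 14.9% higher and 17.5% lower. TFEB alone changed by at least 1.5-fold, upwards, as did 1.2% of all genes. TFEB was 1.64-fold higher, 8.36, 8.31 and 8.14 with tethered WTp53 against 7.52, 7.55 and 7.59 with WTp53 (0.72 ± 0.06, adjusted p = 2.67e-05). DRAM1 was higher by 0.40 (adjusted p = 0.000282), and the other 3 members that were higher were GABARAPL1 (0.18 ± 0.05), AMBRA1 (0.16 ± 0.05) and ATG16L2 (0.15 ± 0.04). Of the conjugation genes 7 of 11 were lower. ATG4C changed by −0.43 ± 0.06 and ATG16L1 by −0.43 ± 0.07, with ATG10 at −0.37 ± 0.06 and ATG12 at −0.36 ± 0.06. The 4 adjusted p were 0.00043, 0.000781, 0.000697 and 0.000909. ATG3, ATG5 and ATG4A were lower by 0.23, 0.16 and 0.15 (adjusted p = 0.000915, 0.0303 and 0.0453). ATG101 was lower by 0.36 and PIK3R4 by 0.36 (adjusted p = 0.000877 and 0.00034), with ATG14 at −0.23 ± 0.06 and ATG13 at −0.14 ± 0.05 (adjusted p = 0.0178 and 0.0485). In the ATG8 family GABARAPL2, GABARAP and MAP1LC3A were lower by 0.26, 0.21 and 0.13 (adjusted p = 0.0067, 0.00588 and 0.0408). Arrays of both groups did not overlap for 24 of the 41 members, against 42.6% of all genes. All 19 called members were among these, but they were picked by their calls on the same arrays. With single arrays of the set left out, ATG13, AMBRA1, ATG4A, ATG5, ATG14, ATG16L2, MAP1LC3A and GABARAPL1 lost the call at least once, with adjusted p up to 0.125, 0.105, 0.145, 0.0885, 0.075, 0.0594, 0.133 and 0.051.

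The difference between both constructs, each relative to the WTp53 of its own set, was called for 2 members, where 2.95% of all genes were called. ATG101 was 0.14 with ΔNp53:WTp53 and −0.36 with tethered WTp53 relative to WTp53, a difference of 0.50 ± 0.13 (limma over 18 arrays, adjusted p = 0.0406). NBR1 was 0.36 with ΔNp53:WTp53 and −0.05 with tethered WTp53, a difference of 0.41 ± 0.09 (adjusted p = 0.0275). Leaving out 1 of the 18 arrays at a time gave 0 to 3 called members: 0 without the first-set WTp53 array of experiment 4, the tethered WTp53 array of d or e or any second-set WTp53 array, and 1 without the ΔNp53:WTp53 or WTp53 array of experiment 5, the tethered WTp53 array of f or any second-set vector array. TFEB differed by −0.54 ± 0.21, which was not called (adjusted p = 0.176). Between the sets the 41 changes relative to WTp53 had a Pearson correlation of 0.50 and a Spearman correlation of 0.52 across genes, against 0.42 and 0.35 over all genes. The sets share no arrays, and genes are not independent replicates.

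WTp53 and vector were run in both sets, which allows the WTp53 effect to be set side by side on separate arrays. Of the 16 members called in the first set 13 were called in the same direction in the second (81.2%, and 61.9% of the 21 called there). For all genes the shares were 71.3% and 61.8%. The 2 series of changes had a Pearson correlation of 0.89 and a Spearman correlation of 0.77 across the 41 genes (0.80 and 0.75 without DRAM1), against 0.79 and 0.66 over all genes. The changes were larger in the first set, with a standard deviation over members of 0.60 against 0.37 and over all genes of 0.54 against 0.33. The difference between the sets was itself called for 8 members, where 12.5% of all genes were called. PIK3C3 fell by 0.92 more in the first set (adjusted p = 0.00224), ATG4C by 0.61 more (adjusted p = 0.0324), ATG5 by 0.56 more (adjusted p = 0.00324) and NBR1 by 0.47 more (adjusted p = 0.00529). DRAM1 and ATG4D rose by 0.57 and 0.40 more in the first set (adjusted p = 0.0416 and 0.0305). ATG12 and GABARAPL1 lay below vector in the first set (−0.41 and −0.20) and above it in the second (0.18 and 0.20), and the first-set changes were not called. Leaving out 1 array at a time gave 15 called members without the ΔNp53:WTp53 array of experiment 0, and 3 to 5 without the WTp53 or vector array of experiment 4 or 5 or any second-set WTp53 or vector array. Set and normalization cannot be told apart.

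**Figure D4:**
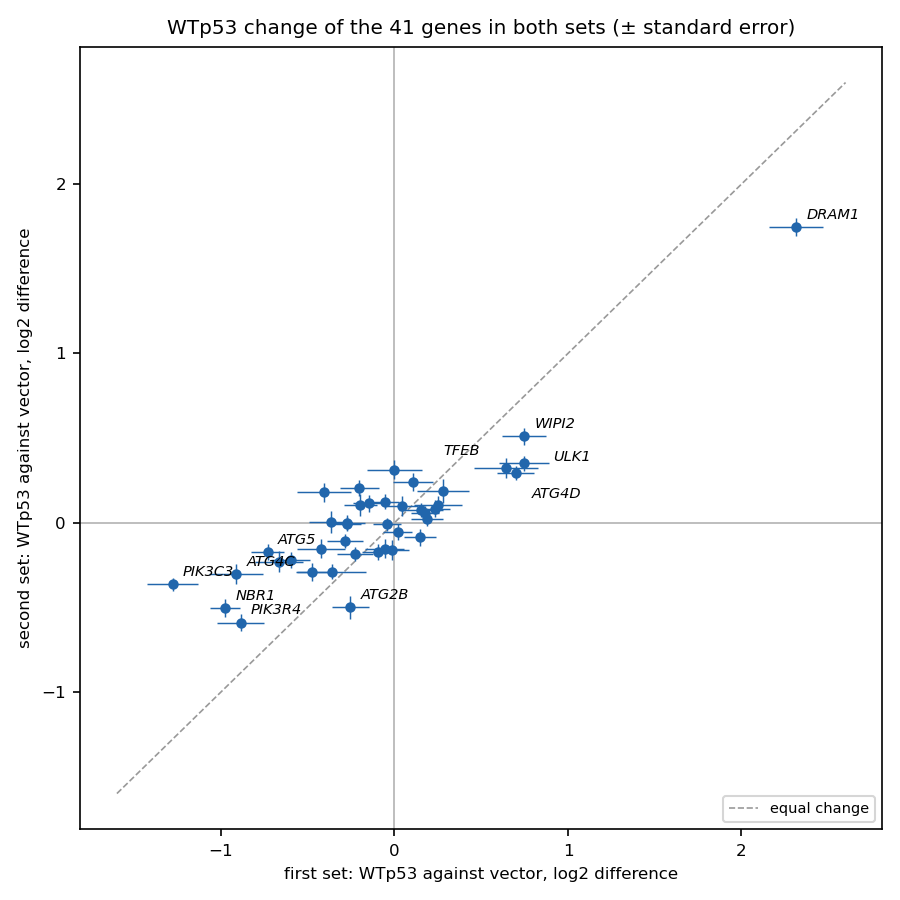
Log2 difference of WTp53 from empty vector in the first set (horizontal axis) and in the second set (vertical axis) for the 41 genes, with standard errors; the dashed line marks equal changes. DRAM1 lies at 2.31 and 1.75, and PIK3C3 at −1.28 and −0.36; most genes lie nearer to 0 on the vertical axis.

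Neighbouring steps of the pathway, given by separate lists, moved in part. Of all genes 36.1%, 31.8%, 47.8% and 36.8% were called with ΔNp53:WTp53, WTp53, tethered WTp53 and WTp53 of the second set. Shares no larger than these were found for lysosomal genes with WTp53 of the first set. The same was found for further regulators with tethered WTp53 and with WTp53 of the second set. The other shares were larger, in lists of 12 to 23 measured genes, and no share was tested. Of 23 measured lysosomal genes, 6 rose and 5 fell with ΔNp53:WTp53, 4 and 1 with WTp53 of the first set, 8 and 7 with tethered WTp53, and 12 and 5 with WTp53 of the second set (47.8%, 21.7%, 65.2% and 73.9% called). GAA, the acid glucosidase, rose by 0.82, 0.83, 0.51 and 0.52 in the same order (adjusted p = 0.000736, 0.000721, 6.62e-06 and 1.21e-05), while the sialidase NEU1 fell by 0.57, 0.48, 0.52 and 0.64 (adjusted p = 0.00259, 0.00708, 4.33e-05 and 1.85e-05). Of 13 genes for fusion of autophagosomes with lysosomes 0, 1, 0 and 0 rose and 6, 4, 9 and 7 fell (46.2%, 38.5%, 69.2% and 53.8%). EPG5, a tether that gives specificity to fusion, fell by 0.86, 0.94, 0.91 and 0.89 (adjusted p = 0.00163, 0.00105, 3.2e-07 and 8.44e-07), and VPS18 of the HOPS tethering complex by 0.55, 0.87, 0.45 and 0.39 (adjusted p = 0.0185, 0.00181, 8.47e-05 and 0.00043). Of 12 further cargo receptors 3, 2, 7 and 6 rose and 3, 3, 4 and 1 fell (50%, 41.7%, 91.7% and 58.3%). NCOA4, the receptor for ferritin, rose by 0.58, 0.58, 0.62 and 0.50 (adjusted p = 0.00217, 0.00236, 7.56e-07 and 8.5e-06), and the endoplasmic reticulum receptor SEC62 fell by 0.80, 1.02, 0.38 and 0.25 (adjusted p = 0.000233, 7.31e-05, 0.00012 and 0.00319). Of 17 further regulators 5, 5, 5 and 3 rose and 3, 3, 3 and 2 fell (47.1%, 47.1%, 47.1% and 29.4%). TP53INP1, a known p53 target that binds ATG8 proteins, rose by 3.59, 3.50, 3.33 and 3.09, more than DRAM1 in each comparison (adjusted p = 9.52e-06, 1.23e-05, 3.44e-10 and 2.03e-09). The zinc finger gene ZKSCAN3, described as a repressor of autophagy genes, fell by 1.18, 1.27, 0.58 and 0.60 (adjusted p = 0.000162, 0.000115, 0.00014 and 0.000174). Relative to WTp53, 0 genes of these 4 lists were called with ΔNp53:WTp53, where 2.44% of all genes were called. At an unadjusted p under 0.05 by limma there were 5, 1, 3 and 3, in the order lysosome, fusion, cargo receptors and regulators, against 18% of all genes. Tethered WTp53 raised 2, 0, 0 and 4 and lowered 4, 4, 2 and 3 in the same order (26.1%, 30.8%, 16.7% and 41.2% called, against 32.4% of all genes).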

How the data were processed

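The deposited values are log2 intensities of probe sets on Affymetrix Gene arrays, made by the authors with RMA in Affymetrix Expression Console, per the submitters' processing notes and the labels. Versions are not given in the sources used here. The sets were normalized separately (array medians 4.89 to 4.97 and 7.01 to 7.07), so levels were not compared between them. Of 33297 probe sets, 19460 carry 1 symbol, 1754 several and 12083 are not listed in the probe table. For each of 18417 genes the probe set with the highest mean over all arrays was kept (769 genes had several). The probe set of the transfected gene is not reported here.

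Each set was fitted with limma 3.58.1 in R 4.3.3, with a mean per group (9 arrays, 6 residual degrees of freedom), and p-values were adjusted by Benjamini-Hochberg over all genes. Differences between effects used all 18 arrays (12 residual degrees of freedom). An exact permutation of 3 against 3 arrays cannot give a p below 0.1, so none is reported. Precision is limited by the number of arrays. The fit was tested on simulated data. In the first set all 9 same-experiment pairs of arrays deviated together (correlation of deviations from the group means 0.106 to 0.572). Pairs of different experiments ran from −0.499 to 0.350. Those with an array of experiment 0 were negative, while those between experiments 4 and 5 were positive. The ΔNp53:WTp53 array of experiment 4 correlated at 0.309 with the WTp53 array of 4 and at 0.350 with that of 5. Experiment 0 was thus set apart, experiments 4 and 5 were not told apart, and the block follows the labels. In the second set 2 of 9 same-letter pairs were above 0.1, and the letters were treated as names. The alternatives were 1 fit of 18 arrays, only the arrays compared, the replicate block, low genes left out, the mean of the probe sets, repeated quantile normalization, an intensity trend, and arrays or experiments left out.

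The members and lists were chosen with earlier results of these data known. Values of every array are given for members called with a change of at least 1.5-fold, for DRAM1 and for members called against WTp53. Of each neighbouring list at most 4 genes of smallest p per comparison are named. Promoter windows were read with Python 3.11.15 and pandas 2.3.3.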

Additional observations from a re-analysis of the deposited data

Results flagged for a closer look

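Relative to WTp53, the effects of ΔNp53:WTp53 and tethered WTp53 differed by the test of the difference itself for 2 members. ATG101 differed by 0.50 (ΔNp53:WTp53 minus tethered WTp53, limma over 18 arrays, adjusted p = 0.0406) and NBR1 by 0.41 (adjusted p = 0.0275). Both effects of NBR1 are relative to WTp53 arrays that themselves differed from vector by −0.98 in the first set and −0.51 in the second.

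The WTp53 change from vector differed between the first and the second set for 8 members by the same kind of test. First minus second, PIK3C3 differed by −0.92, ATG4C by −0.61, ATG12 by −0.59, ATG5 by −0.56, NBR1 by −0.47 and GABARAPL1 by −0.41. DRAM1 differed by 0.57 and ATG4D by 0.40. Of these, ATG12 and GABARAPL1 had changes of opposite sign in the sets. A sample far from its group was not looked for, since all groups hold 3 arrays.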

How the results depend on the processing

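Of 1395 alternative values, 1209 kept direction and call or stayed close, 97 lost the call, 8 gained it, 81 moved (counts, medians and shares) and 0 reversed. In 1 fit of all 18 arrays the members called were 5 for ΔNp53:WTp53 against WTp53 (4 higher, 1 lower), 9 for tethered WTp53 against WTp53 (2 and 7) and 9 for WTp53 against vector in the second set (4 and 5). The 12 calls lost there were those of ATG13, ATG14, AMBRA1, WIPI1, ATG4C, ATG5, ATG7, ATG12, GABARAPL1, SQSTM1, OPTN and TFEB (adjusted p 0.0756 to 0.384). The same fit also lost calls in tethered WTp53 against vector (adjusted p 0.0545 to 0.323). They were those of ATG9A, VMP1, ATG12, ATG16L2, MAP1LC3B, GABARAP, GABARAPL2 and SQSTM1. With the replicate block, which pairs arrays of an experiment, ΔNp53:WTp53 against WTp53 had 1 member called (UVRAG) and 4.38% of all genes. In the other comparisons the block moved no count of members by 1.5 times, and the calls that it changed in the first set stand beside their genes. In the second set, where the letters do not pair the arrays, ATG13, ATG4A and MAP1LC3A were not called in tethered WTp53 against WTp53 (adjusted p = 0.0541, 0.067 and 0.0638) and ATG2B was (0.0241, without the block 0.0524). ATG101 and RB1CC1 were called in WTp53 against vector (0.0328 each, without the block 0.0576 and 0.0502). After quantile normalization was repeated, the difference of ΔNp53:WTp53 and tethered WTp53 effects was called for 1 member. With 1 array left out the counts of called members ran from 0 to 5 for ΔNp53:WTp53 against WTp53, 15 to 21 for ΔNp53:WTp53 and 12 to 19 for WTp53 against vector in the first set, 13 to 19 for tethered WTp53 against WTp53, 27 to 29 for tethered WTp53 and 18 to 26 for WTp53 against vector in the second, 0 to 3 for the difference of the construct effects and 3 to 15 for that of the WTp53 effects. With a whole experiment left out they were 0 to 7, 5 to 22, 7 to 22, 10 to 12, 25 to 28 and 16 to 20 in the order of the 6 comparisons; the low values of the first set, 5 and 7, came without experiment 4, and its high values without experiment 0. Leaving out an experiment lowers the arrays per group to 2. On simulated data with 50 genes shifted at each fold, 54% of genes shifted 1.2-fold were called in tethered WTp53 against WTp53. In ΔNp53:WTp53 against WTp53 it was 2%. The simulations gave 185 and 139 calls, against 5970 and 449 in the data, so these shares are not detection rates of the data. Replicates also differed in spread between the sets, so the numbers of calls in the sets are not comparable.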

Other observations

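MAP1LC3B has another probe set, which the probe table shares between MAP1LC3B and its near-identical copy MAP1LC3B2 and which was not used above. It changed by −0.10 with tethered WTp53 relative to vector, against 0.19 for the probe set of MAP1LC3B alone, and by −0.21 relative to WTp53, against 0.01. The second probe sets of ATG2B and ATG4B moved in the same direction as those used in all comparisons with vector. Outside the machinery, the mitochondrial receptor BNIP3 rose by 1.16 with tethered WTp53 and 1.07 with WTp53 in the second set (adjusted p = 1.03e-06 and 4.26e-06). Its first-set changes were 0.28 ± 0.18 with ΔNp53:WTp53 and −0.04 ± 0.18 with WTp53, which limma did not call (adjusted p = 0.278 and 0.895). The difference between the sets was not tested for BNIP3.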
